A study of Homo sapiens with 16 samples.

Results

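Interferon-stimulated genes are described here in INA6 and JJN3, established cell lines of human multiple myeloma, after repression of KANSL2. The group was a list of 38 gene symbols, read by symbol from the deposited tables, and all 38 were among the 28277 symbols of each table. Interferons are secreted proteins that act through receptors on the cell surface. The receptor-bound kinases JAK1 and TYK2 phosphorylate transcription factors of the STAT family, which join IRF9 in a nuclear complex that recognises the interferon-stimulated response element of its target genes. The products block viral replication, sense foreign RNA, present antigen and restrain the pathway itself. In many tumour lines a subset of these genes is transcribed without added interferon.

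Messenger RNA was sequenced from 4 groups of 3 libraries each, INA6 KANSL2 knockdown, INA6 nontargeting sgRNA control, JJN3 KANSL2 knockdown and JJN3 nontargeting sgRNA control. The cells were plasma cell lines labelled as untreated, so no interferon was named as added. All groups belong to a system that the series text spells dCas9-CRAB, in which an inactive Cas9 carries a repressor to the gene chosen by the guide. KANSL2 belongs to the NSL complex, a chromatin complex built around the histone acetyltransferase KAT8. INA6 is known to need interleukin 6 for growth and JJN3 is not. The number of guides, whether cells were clones or pools, and whether replicates were separate cultures are not given in the sources used here, so the p-values reflect the scatter among these libraries and that scatter may be technical only. Another 4 JJN3 libraries of chromatin accessibility were not analysed here.

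The values were regularised log (rlog) values on the log2 scale, normalised by the authors within each line, so levels are read within a line only, and sequencing depth is unknown. A gene was tested where its mean rlog value over a line's 6 libraries reached 3. The test was limma, with p-values adjusted by Benjamini and Hochberg's method over all genes tested, and a gene below 0.05 was called higher or lower. Every change is given as knockdown minus control, in log2 units, with its standard error (SE), n = 3 libraries per arm, and every adjusted p is from these limma fits. In bulk RNA, fewer cells that express a gene and less of its RNA per cell cannot be told apart, and a change in total RNA per cell is not seen after scaling. The target KANSL2 had rlog values of 7.71, 7.60 and 7.76 in INA6 knockdown libraries, against 8.06, 8.02 and 8.16 in INA6 controls. In JJN3 it had 6.00, 5.98 and 6.06 in knockdown libraries, against 7.25, 7.24 and 7.19 in controls. It fell to 76.4% of the control level in INA6 (−0.39, SE 0.062, adjusted p = 3.06e-05) and to 43.1% in JJN3 (−1.21, SE 0.056, adjusted p = 1.48e-16). Of 10 plasma cell markers 9 reached the minimum mean in each line, CD27 being the exception. In INA6 2 of these 9 were higher and 6 lower in the knockdown, with a median change of −0.44, and in JJN3 5 were higher and 1 lower, with a median of 0.20. In either direction 88.9% were called in INA6 and 66.7% in JJN3, against 48.6% and 51.0% of all genes tested. Summed levels (2 to the power of the rlog value) were added over all markers of a list that were not at 0 in all libraries of a line. They include markers below the minimum mean. Over 10 plasma cell markers the sum was 73875 to 83426 in INA6 knockdown libraries, against 105599 to 107584 in INA6 controls. In JJN3, also over 10, it was 99896 to 103569 in knockdown libraries, against 91449 to 93851 in controls. Of 10 T and NK cell markers 4 reached the minimum mean in INA6, where PRF1 was lower by 0.47, and 1 in JJN3, where CD3E was lower by 0.18. Over 10 T and NK cell markers in INA6 the summed level was 128 to 132 in knockdown libraries, against 142 to 160.0 in controls. Over 8 in JJN3 it was 55.6 to 57.7 in knockdown libraries, against 59.1 to 66.6 in controls. Of 10 myeloid and plasmacytoid dendritic cell markers 2 reached it in each line and none was called, and FCGR3A, CLEC4C, LILRA4 and IL3RA were listed at 0 in all libraries. Over the 5 markers not at 0 in INA6 the summed level was 178 to 191 in knockdown libraries, against 192 to 225 in controls. Over 5 in JJN3 it was 123 to 131 in knockdown libraries, against 114 to 124 in controls. Of 8 stromal markers 2 reached the minimum mean in each line, and 1, VIM, was called, higher by 0.14 in JJN3. Over 7 stromal markers in INA6 the summed level was 5091 to 5288 in knockdown libraries, against 5358 to 5609.9 in controls. Over 5 in JJN3 it was 1877 to 1945 in knockdown libraries, against 1674 to 1776 in controls. The part of these genes in the results was not tested.

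On KANSL2 knockdown, interferon-stimulated genes were called both higher and lower in each line. In INA6 the larger share of called members was higher in the knockdown, and in JJN3 the larger share was lower. In INA6, 29 members were tested, 13 were called higher and 4 lower. That is 44.8% higher and 13.8% lower, where 24.7% of all 12511 genes tested were called higher, 24.0% lower and 48.6% in either direction. With a minimum mean of 5 in place of 3, 8 members were called higher in INA6 and 3 lower. In JJN3, 25 members were tested, 6 were called higher and 10 lower. That is 24.0% higher and 40.0% lower, where 25.5% of all 12282 genes tested were called higher, 25.5% lower and 51.0% in either direction. The median change of the tested members was 0.033 in INA6 and −0.025 in JJN3, and that of all genes tested was 0.00094 and 0.0010. The changes were small, with a median absolute size of 0.18 in INA6 and 0.19 in JJN3, against 0.13 and 0.12 for all genes tested.

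Knockdown and control libraries did not overlap for 17 of the 29 members in INA6, or 58.6%, where 55.2% of all genes tested did not overlap. They did not overlap for 18 of 25 in JJN3, or 72.0%, against 56.1% of all genes tested. In both lines together, 25 of the 38 members were called at least once, and 8 were tested in neither line. That share over all genes was not computed, while 48.6% of all genes tested were called in INA6 and 51.0% in JJN3. The members that did not reach the minimum mean in either line were IRF7, IFITM3, USP18, HERC6, RSAD2, IFI27, IFI44 and IFI44L. MX2 was not tested in INA6, and OASL, MX1, IFIT1, IFIT2 and TRIM22 were not tested in JJN3. RSAD2 and IFI27 were listed at 0 in all 12 libraries, and IFI44L and TRIM22 in all 6 of JJN3. EIF4A1, a translation factor that every cell uses, also fell short of the minimum mean, so a gene that was not tested cannot be called silent. No tested member had an arm mean below the minimum.

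**Figure D1:**
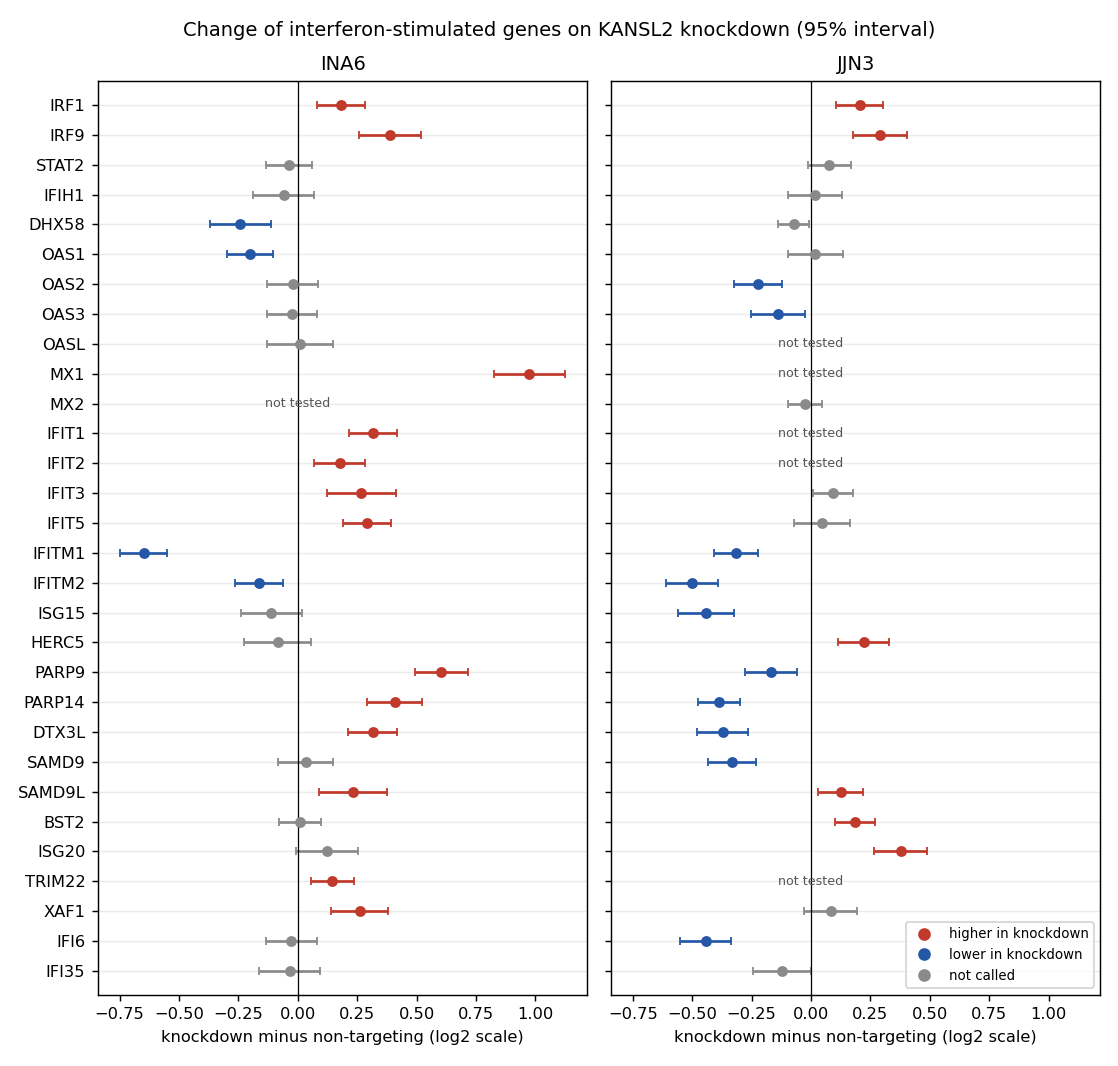
Change of each tested member on KANSL2 knockdown (x axis, log2 scale, knockdown minus control) in INA6 (left) and JJN3 (right), ordered by role. Points are limma estimates from 3 knockdown and 3 control libraries, bars are 95% confidence intervals, and colours give the call. PARP9, PARP14 and DTX3L lie right of 0 in INA6 and left of 0 in JJN3, while IFITM1 and IFITM2 lie left of 0 in both.

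IRF9 and IRF1, transcription factors of the pathway, rose in both lines. IRF9, the DNA-binding partner of STAT2, had rlog values of 8.40, 8.34 and 8.29 in INA6 knockdown libraries, against 7.99, 7.83 and 8.05 in INA6 controls. JJN3 knockdown libraries had 7.53, 7.64 and 7.62, against 7.28, 7.34 and 7.29 in JJN3 controls. Every knockdown library lay above every control of its line, and IRF9 rose by 0.39 (SE 0.063, adjusted p = 3.41e-05) in INA6 and by 0.29 (SE 0.055, adjusted p = 6.31e-05) in JJN3. IRF1, a transcription factor induced by interferon gamma, had 9.38, 9.40 and 9.41 in INA6 knockdown libraries, against 9.21, 9.24 and 9.20 in controls. In JJN3 knockdown libraries IRF1 had 9.93, 9.98 and 10.01, against 9.81, 9.85 and 9.65 in JJN3 controls. The groups again did not overlap in either line, and IRF1 rose by 0.18 (SE 0.048, adjusted p = 0.00338) in INA6 and by 0.20 (SE 0.048, adjusted p = 0.000719) in JJN3. The difference between the 2 changes was −0.022 for IRF1, with a 95% confidence interval of −0.16 to 0.11, and 0.096 for IRF9, with −0.072 to 0.26. STAT2, the signal transducer specific to type I and III interferons, was at −0.037 in INA6 and 0.077 in JJN3 and was called in neither. IRF7, which drives interferon genes, had a mean below the minimum in both lines.

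Of the 2 members that sense cytosolic double-stranded RNA, IFIH1 and DHX58, DHX58 fell in INA6. The related sensor RIG-I, listed as DDX58 and not among the 38, was lower by 0.13 in JJN3 (adjusted p = 0.0438) and at 0.079 in INA6 (adjusted p = 0.271), and was chosen after its values were seen. IFIH1, which encodes MDA5, was at −0.059 in INA6 and 0.017 in JJN3 and was not called. DHX58, which encodes LGP2, a regulator of MDA5, had 5.94, 5.82 and 5.80 in INA6 knockdown libraries, against 6.07, 6.11 and 6.11 in controls. All 3 knockdown values lay below the controls, and DHX58 fell by 0.24 (SE 0.062, adjusted p = 0.00270). In JJN3 it was at −0.073 (adjusted p = 0.0588), close to the minimum mean for testing, with 3.04, 3.00 and 3.02 in knockdown libraries, against 3.08, 3.07 and 3.13 in controls. The difference between the lines was −0.17 for DHX58 and was not called (adjusted p = 0.0586, in a range over its alternatives of 0.0245 to 0.184).

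PARP9, DTX3L and PARP14 rose in INA6 and fell in JJN3, the only 3 members called in opposite directions in the 2 lines. PARP9 and DTX3L form a complex that joins ADP-ribosylation to ubiquitination, and PARP14 is an ADP-ribosyltransferase of the same family. PARP9 had rlog values of 10.55, 10.64 and 10.46 in INA6 knockdown libraries, against 9.90, 9.89 and 10.04 in INA6 controls. In JJN3 it had 5.56, 5.49 and 5.52 in knockdown libraries, against 5.76, 5.62 and 5.70 in controls. It was at 152% of the control level in INA6, a rise of 0.60 (SE 0.053, adjusted p = 1.45e-08), and at 88.9% in JJN3, a change of −0.17 (SE 0.053, adjusted p = 0.00893). Quantile normalisation (−0.090, adjusted p = 0.159) and leaving out control replicate 1 (−0.13, adjusted p = 0.0587) ended the JJN3 call. Over its alternatives the adjusted p lay between 0.00539 and 0.159.

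DTX3L had 10.51, 10.63 and 10.54 in INA6 knockdown libraries, against 10.18, 10.22 and 10.34 in controls. In JJN3 knockdown libraries DTX3L had 8.12, 8.07 and 8.13, against 8.39, 8.57 and 8.48 in JJN3 controls. DTX3L rose by 0.32 (SE 0.050, adjusted p = 2.54e-05) in INA6 and fell by 0.37 (SE 0.053, adjusted p = 9.34e-07) in JJN3, and neither line had an overlap. PARP14 had 9.84, 10.06 and 9.84 in INA6 knockdown libraries, against 9.47, 9.50 and 9.55 in controls. In JJN3 knockdown libraries PARP14 had 9.87, 9.85 and 9.80, against 10.28, 10.19 and 10.22 in JJN3 controls. PARP14 rose by 0.41 (SE 0.056, adjusted p = 5.12e-06) in INA6 and fell by 0.39 (SE 0.043, adjusted p = 1.36e-08) in JJN3, again with no overlap. The test of the difference itself gave 0.77 for PARP9 (SE 0.076, adjusted p = 6.45e-12), 0.69 for DTX3L (SE 0.073, adjusted p = 7.74e-11) and 0.80 for PARP14 (SE 0.071, adjusted p = 3.78e-13). Of the 8 members called in both lines, these 3 were called in opposite directions and 5 in the same direction. Among all genes, 3384 were called in both lines, and 12.9% of those were called in opposite directions.

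**Figure D2:**
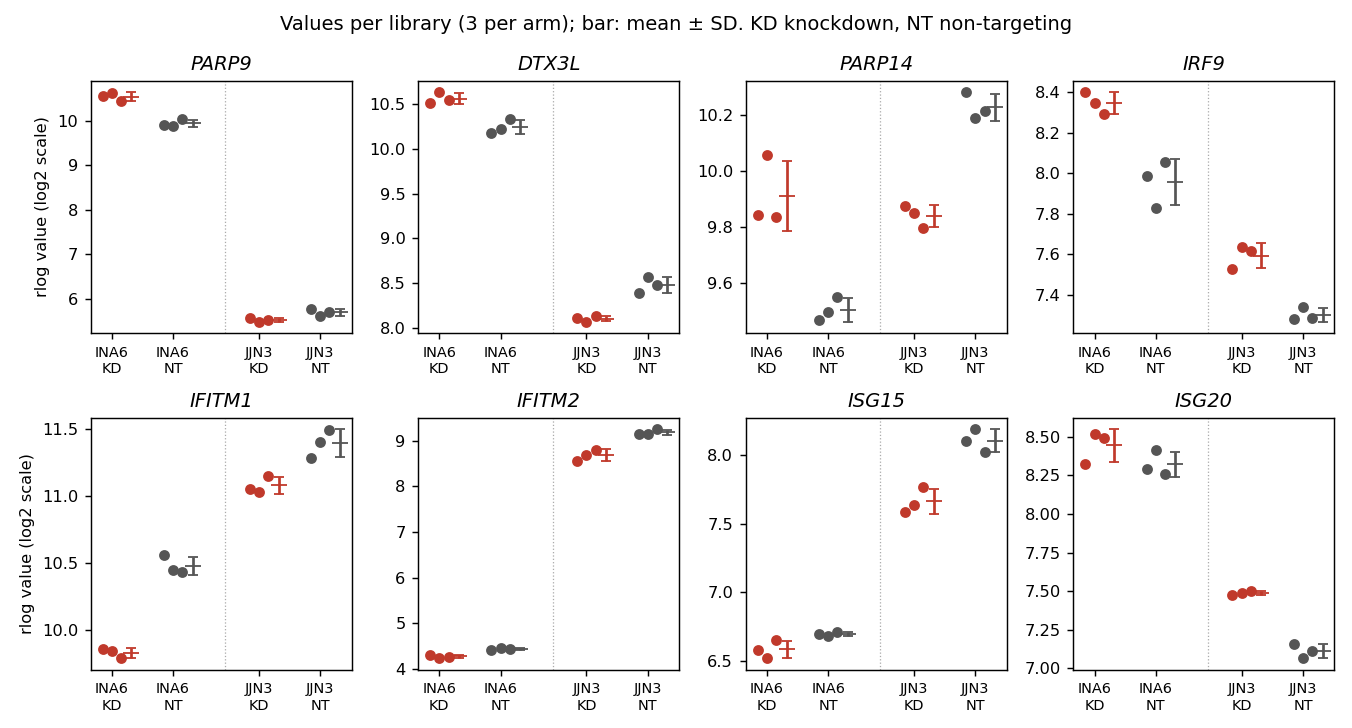
rlog values (y axis, log2 scale) of 8 members in every library of the knockdown (KD, red) and non-targeting (NT, grey) arms of INA6 and JJN3, with mean ± SD beside each group of 3. The 2 lines were normalised separately, so only the arms of 1 line are to be compared; PARP9, DTX3L and PARP14 are above the controls in INA6 and below them in JJN3.

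These 3 genes lie close together on chromosome 3 of GRCh38.p14. The span of PARP9 runs from 122527924 to 122564784, that of DTX3L from 122564338 to 122575203, and that of PARP14 from 122680839 to 122730840. PARP9 and DTX3L are read in opposite directions and share 447 bases of annotated span, so reads from the shared bases cannot be told apart if strand was not kept. PARP14 starts 116.5 kb from the start of DTX3L. Within 500 kb on each side of the DTX3L start, a window chosen after the values were seen, 14 protein-coding genes are annotated and 8 were tested in both lines. Of the other 5, none was higher in INA6 and lower in JJN3. Over all 11137 genes tested in both lines, 435 were called in opposite directions, so none among 5 does not set the locus apart. KPNA1, a nuclear import receptor, was higher by 0.19 in INA6 (adjusted p = 0.00169) and at −0.0048 in JJN3 (adjusted p = 0.934). HSPBAP1 was lower by 0.26 in INA6 (adjusted p = 0.00126) and WDR5B lower by 0.37 in JJN3 (adjusted p = 3.02e-06). FAM162A and SLC49A4 were called in neither line.

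**Figure D3:**
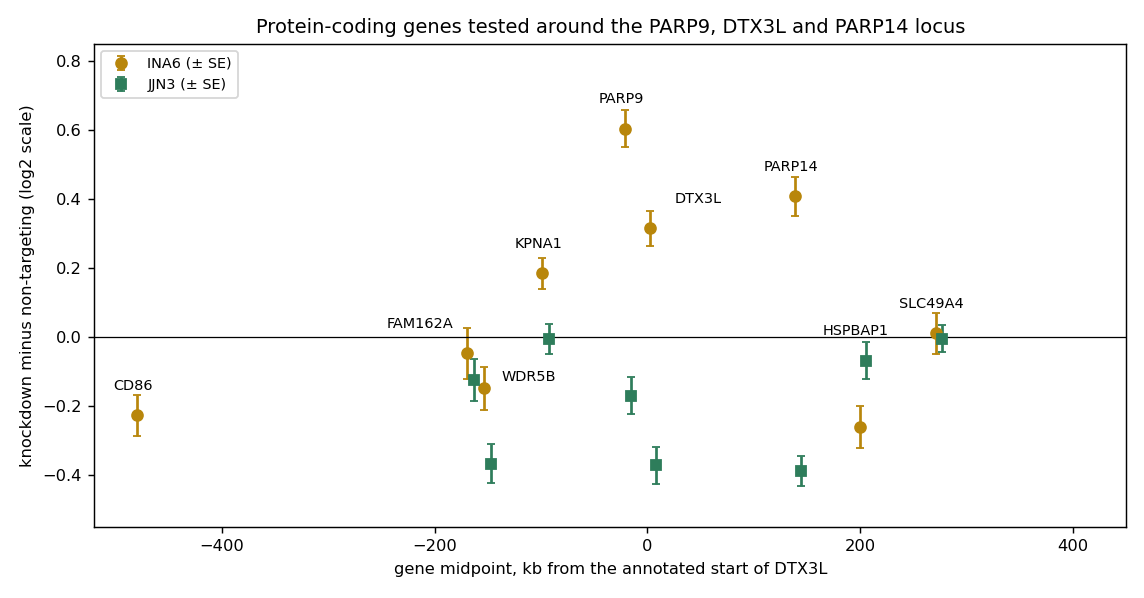
Change on knockdown (y axis, log2 scale, ± SE) of protein-coding genes that were tested, placed by the distance of the gene's midpoint from the annotated start of DTX3L in kb (x axis), for INA6 (circles) and JJN3 (squares, set slightly to the right). PARP9, DTX3L and PARP14 are above 0 in INA6 and below 0 in JJN3. None of the other 5 genes tested in both lines shows that pair of calls. Of all 11137 genes tested in both lines, 435 were called in opposite directions.

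The promoters of these genes are shown because each has a promoter window with the letters of the interferon-stimulated response element. The motif searched was the core of that element, the letters GAAA, any 2 bases and GAAA again, on both strands of RefSeq promoter windows of GRCh38.p14 that run from 250 bases before to 50 after an annotated start. The capitals mark the match. The match of PARP9 and that of DTX3L are the same bases, chr3:122564332-122564341, read on opposite strands, and the match lies over the annotated start of DTX3L. The table has 2 windows for PARP9, and the match is in the window from 122564251 to 122564550, while the one over the start of the annotated span, from 122564735 to 122565034, holds no match.
PARP9, chr3:122564322-122564351, minus strand: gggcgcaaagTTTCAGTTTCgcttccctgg
DTX3L, chr3:122564332-122564341, plus strand: GAAACTGAAA
PARP14, chr3:122680800-122680829, plus strand: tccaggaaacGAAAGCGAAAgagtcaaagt
Of the 38 members 29 had a promoter in the table, and 21 of them, or 72.4%, held the motif in at least 1 window, where 4.38% of all 27305 genes in the table did. A second motif, TTCNNNGAA, the core of the gamma-activated site that STAT dimers bind, was in 9 members, or 31.0%, against 9.38% of all genes. In JJN3 all 8 members called lower that had a promoter held the first motif. So did 3 of 6 called higher, 3 of 7 not called and 7 of 8 not tested. Among the 8 called lower, PARP9 and DTX3L share the same match, and the calls of PARP9 and OAS3 were lost under some alternatives. In INA6 the first motif was in 7 of 11 called higher, 1 of 2 called lower, 8 of 10 not called and 5 of 6 not tested. A match is a description of the letters and not evidence of binding, and some matches of the 2 motifs overlap.

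The IFIT genes, whose products bind viral RNA and block its translation, all rose in INA6. Means over the 6 INA6 libraries were low for IFIT2 (3.37), IFIT5 (3.72) and IFIT1 (4.14), not far above the minimum mean of 3 for testing. IFIT1 had 4.24, 4.35 and 4.29 in INA6 knockdown libraries, against 3.96, 3.96 and 4.01 in controls, a rise of 0.32 (SE 0.049, adjusted p = 1.90e-05). IFIT5 had 3.94, 3.89 and 3.76 in knockdown libraries, against 3.57, 3.60 and 3.55 in controls, a rise of 0.29 (SE 0.049, adjusted p = 5.55e-05). IFIT3 had 5.33, 5.44 and 5.13 in knockdown libraries, against 5.05, 4.94 and 5.10 in controls, a rise of 0.27 (SE 0.070, adjusted p = 0.00333). No knockdown library overlapped a control for these genes. IFIT2 had 3.58, 3.41 and 3.37 in knockdown libraries, against 3.26, 3.23 and 3.34 in controls, also with no overlap. IFIT2 was higher by 0.18 (SE 0.052, adjusted p = 0.00740), and the call was lost without knockdown replicate 1 (0.11, adjusted p = 0.0648), in a range over its alternatives of 0.00165 to 0.0648. In JJN3, IFIT1 and IFIT2 were below the minimum mean and IFIT3 was at 0.094 (adjusted p = 0.0561). IFIT5 had 6.50, 6.48 and 6.41 in JJN3 knockdown libraries, against 6.45, 6.32 and 6.48 in controls, which overlapped (0.047, adjusted p = 0.517). The IFIT3 call was gained in JJN3 under median centring, quantile normalisation, the replicate block and without control replicate 1 or knockdown replicate 2, in a range of 0.00756 to 0.234. The difference between the lines was 0.17 for IFIT3 and was not called (adjusted p = 0.101, in a range over its alternatives of 0.0106 to 0.393).

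The 4 IFIT genes lie on chromosome 10 and each overlaps the annotated span of LIPA, the lysosomal acid lipase gene. Reads from shared bases are therefore uncertain where strand was not kept. LIPA was lower by 0.55 in INA6 (adjusted p = 1.18e-06) and by 0.13 in JJN3 (adjusted p = 0.0235), the opposite direction to IFIT1, IFIT2, IFIT3 and IFIT5 in INA6. The part of LIPA reads in the IFIT values was not tested. Of the IFIT genes in the promoter table, IFIT1, IFIT3 and IFIT5, each held more than 1 match of the first motif, and both matches of IFIT1 and the one of IFIT5 farthest from its start are given because IFIT1 and IFIT5 rose most in the family.
IFIT1, chr10:89392497-89392526, plus strand: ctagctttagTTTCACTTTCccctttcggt
IFIT1, chr10:89392510-89392539, plus strand: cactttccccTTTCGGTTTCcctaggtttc
IFIT5, chr10:89414513-89414542, plus strand: ttctattaagTTTCGGTTTCtgaagcttac

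MX1, a dynamin-like GTPase that blocks many viruses, had the largest change of any tested member in INA6. Its rlog values were 8.83, 8.92 and 8.62 in INA6 knockdown libraries, against 7.86, 7.68 and 7.90 in controls, with no overlap. It stood at 197% of the control level (0.97, SE 0.072, adjusted p = 1.23e-09). In JJN3 it was below the minimum mean, with 1.69, 1.71 and 1.72 in knockdown libraries, against 1.71, 1.69 and 1.72 in controls. Its relative MX2, which restricts HIV, was not tested in INA6 and was at −0.025 in JJN3 (adjusted p = 0.582).

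The oligoadenylate synthetases, enzymes that are activated by double-stranded RNA, were called higher in neither line. OAS1 had 9.83, 9.84 and 9.80 in INA6 knockdown libraries, against 10.00, 10.08 and 9.99 in controls, a change of −0.20 (SE 0.047, adjusted p = 0.00123) with no overlap. OAS2 had 11.57, 11.51 and 11.36 in INA6 knockdown libraries, against 11.41, 11.53 and 11.56 in controls, which overlapped (−0.021, adjusted p = 0.756). OAS3 was at −0.023 in INA6 and OASL, a relative without synthetase activity, at 0.0097, and neither was called. In JJN3, OAS1 had 5.58, 5.55 and 5.66 in knockdown libraries, against 5.54, 5.50 and 5.69 in controls, which overlapped (0.019, adjusted p = 0.799). OAS2 there had 5.31, 5.26 and 5.30 in knockdown libraries, against 5.48, 5.51 and 5.54 in controls, a change of −0.22 (SE 0.050, adjusted p = 0.000457) with no overlap. OAS3 had 5.79, 5.86 and 5.78 in JJN3 knockdown libraries, against 5.87, 5.95 and 6.02 in controls, a change of −0.14 (SE 0.055, adjusted p = 0.0376). That call was lost under 7 of 12 alternatives, over all of which the adjusted p lay between 0.0174 and 0.306. They were median centring (0.0934), quantile normalisation (−0.069, 0.306), no filter (0.0577) and leaving out control replicate 2 (0.0771), control replicate 3 (0.171), knockdown replicate 1 (0.0895) or knockdown replicate 3 (0.112). The difference between the lines was −0.22 for OAS1 (adjusted p = 0.0175) and 0.20 for OAS2 (adjusted p = 0.0283). The first was lost without INA6 control replicate 2 (0.0646), JJN3 control replicate 2 (0.0767) or JJN3 knockdown replicate 3 (0.0642), in a range of 0.000233 to 0.0767, and was −0.35 with quantile normalisation. Quantile normalisation ended the second (0.038, adjusted p = 0.726), as did leaving out INA6 control replicate 1 (0.120), INA6 knockdown replicate 1 (0.0850) or 2 (0.0753), JJN3 control replicate 3 (0.0600) or JJN3 knockdown replicate 2 (0.0673), in a range of 0.00289 to 0.726.

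The IFITM genes, whose products sit in membranes and hinder the entry of enveloped viruses, fell in both lines. IFITM1 had rlog values of 9.86, 9.84 and 9.79 in INA6 knockdown libraries, against 10.56, 10.45 and 10.43 in controls. JJN3 knockdown libraries had 11.05, 11.03 and 11.15, against 11.29, 11.41 and 11.49 in JJN3 controls. It was at 63.8% of the control level in INA6 (−0.65, SE 0.048, adjusted p = 1.18e-09) and at 80.4% in JJN3 (−0.32, SE 0.046, adjusted p = 1.42e-06). IFITM2 had 4.31, 4.23 and 4.27 in INA6 knockdown libraries, against 4.42, 4.45 and 4.43 in controls. JJN3 knockdown libraries had 8.56, 8.70 and 8.81, against 9.15, 9.16 and 9.26 in JJN3 controls. It fell by 0.16 in INA6 (SE 0.049, adjusted p = 0.00914) and by 0.50 in JJN3 (SE 0.054, adjusted p = 8.13e-09), and no group overlapped for either gene. The fall of IFITM1 was the larger in INA6 and that of IFITM2 the larger in JJN3, by −0.33 (adjusted p = 9.57e-05) and 0.34 (adjusted p = 0.000310). IFITM1, IFITM2 and IFITM3 lie side by side on chromosome 11 and are close in sequence, so the split of reads between them is uncertain, and IFITM3 was below the minimum mean in both lines.

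ISG15, a ubiquitin-like modifier, fell in JJN3, while HERC5, the ligase that attaches it to proteins, rose there. ISG15 had 7.58, 7.64 and 7.76 in JJN3 knockdown libraries, against 8.10, 8.18 and 8.02 in controls, a fall to 73.6% of the control level (−0.44, SE 0.058, adjusted p = 2.17e-07) with no overlap. In INA6 it had 6.58, 6.52 and 6.65 in knockdown libraries, against 6.70, 6.68 and 6.71 in controls. That difference of −0.11 did not pass (adjusted p = 0.148), though the groups did not overlap. HERC5 had 5.71, 5.72 and 5.82 in JJN3 knockdown libraries, against 5.50, 5.53 and 5.56 in controls, a rise of 0.22 (SE 0.053, adjusted p = 0.000791). In INA6, HERC5 had 6.92, 7.04 and 7.17 in knockdown libraries, against 7.15, 7.08 and 7.14 in controls, which overlapped (−0.085, adjusted p = 0.315). The difference between the lines was 0.33 for ISG15 (adjusted p = 0.00206) and −0.31 for HERC5 (adjusted p = 0.00476). USP18, which removes ISG15 and dampens receptor signalling, and HERC6 were below the minimum mean in both lines. The promoter of ISG15 held a pair of overlapping matches of the first motif.
ISG15, chr1:1013374-1013403, plus strand: catgcctcggGAAAGGGAAAccgaaactga
ISG15, chr1:1013380-1013409, plus strand: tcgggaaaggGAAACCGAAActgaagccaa

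SAMD9 and SAMD9L are related genes on chromosome 7 whose products restrict poxviruses and cell growth. SAMD9 fell in JJN3, and SAMD9L was called higher in both lines. SAMD9 had 8.70, 8.65 and 8.61 in JJN3 knockdown libraries, against 8.99, 8.94 and 9.03 in controls, a change of −0.33 (SE 0.049, adjusted p = 1.37e-06) with no overlap. In INA6 it had 10.38, 10.32 and 10.18 in knockdown libraries, against 10.19, 10.22 and 10.37 in controls, which overlapped (0.033, adjusted p = 0.654). The difference between the lines was 0.36 (SE 0.074, adjusted p = 0.000120). SAMD9L had 10.71, 10.73 and 10.46 in INA6 knockdown libraries, against 10.31, 10.32 and 10.58 in INA6 controls. JJN3 knockdown libraries had 11.36, 11.27 and 11.16, against 11.22, 11.08 and 11.12 in JJN3 controls. It was higher by 0.23 in INA6 (adjusted p = 0.00811) and by 0.13 in JJN3 (adjusted p = 0.0243), and the groups overlapped in both lines. In INA6 the call did not hold when 1 control was left out, replicate 1 (0.19, adjusted p = 0.0628) or replicate 2 (0.19, 0.0664), or when knockdown replicate 2 was (0.18, 0.0583), in a range of 0.000161 to 0.0664. In JJN3 it did not hold under 7 of 12 alternatives, and the adjusted p lay between 0.00159 and 0.849 over all of them. The 7 were quantile normalisation (0.013, 0.849), no filter (0.0600), no mean-variance trend (0.0628) and leaving out control replicate 2 (0.095, 0.155), control replicate 3 (0.12, 0.0759), knockdown replicate 1 (0.077, 0.142) or knockdown replicate 2 (0.12, 0.0769).

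Among the remaining effectors, ISG20 and BST2 rose in JJN3 and XAF1 and TRIM22 in INA6. ISG20, a nuclease that degrades single-stranded RNA, had 7.48, 7.49 and 7.50 in JJN3 knockdown libraries, against 7.16, 7.07 and 7.11 in controls, a rise of 0.38 (SE 0.055, adjusted p = 1.32e-06) with no overlap. In INA6 it had 8.32, 8.52 and 8.49 in knockdown libraries, against 8.29, 8.41 and 8.26 in controls, which overlapped (0.12, adjusted p = 0.110). ISG20 passed in INA6 with median centring (0.16, adjusted p = 0.0373) and without knockdown replicate 1 (0.18, 0.0161), in a range of 0.0161 to 0.360. BST2, or tetherin, which holds budding virus on the cell surface, had 11.56, 11.56 and 11.69 in JJN3 knockdown libraries, against 11.37, 11.44 and 11.44 in controls, a rise of 0.19 (SE 0.042, adjusted p = 0.000491). Quantile normalisation ended the BST2 call (0.081, adjusted p = 0.0897), in a range over its alternatives of 6.44e-05 to 0.0897. In INA6 BST2 had 11.49, 11.52 and 11.55 in knockdown libraries, against 11.57, 11.47 and 11.49 in controls, which overlapped (0.0084, adjusted p = 0.885). XAF1, which promotes apoptosis, had 4.26, 4.36 and 4.10 in INA6 knockdown libraries, against 4.04, 3.95 and 3.94 in controls, a rise of 0.26 (SE 0.058, adjusted p = 0.000888). In JJN3 XAF1 was at 0.083 (adjusted p = 0.207), which passed with quantile normalisation (0.13, 0.0406; range 0.0406 to 0.438). TRIM22, a ubiquitin ligase, was higher by 0.15 in INA6 (adjusted p = 0.00915), a call lost without knockdown replicate 2 (0.11, adjusted p = 0.0723, in a range of 0.00176 to 0.0723). TRIM22 was not tested in JJN3, so its lines cannot be compared.

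IFI6, a mitochondrial protein with antiviral activity, fell in JJN3. It had 5.47, 5.47 and 5.51 in JJN3 knockdown libraries, against 5.90, 6.00 and 5.89 in controls, a fall to 73.6% of the control level (−0.44, SE 0.053, adjusted p = 4.89e-08) with no overlap. In INA6 it had 4.65, 4.64 and 4.59 in knockdown libraries, against 4.68, 4.66 and 4.62 in controls (−0.027, adjusted p = 0.688), and the difference between the lines was 0.42 (SE 0.074, adjusted p = 1.46e-05). IFI35, a partner of NMI, was at −0.035 in INA6 and −0.12 in JJN3 (adjusted p = 0.0887) and was called in neither. It passed in JJN3 without control replicate 1 (−0.16, 0.0490) or knockdown replicate 2 (−0.17, 0.0445), in a range of 0.0445 to 0.564. The IFI6 promoter held 3 matches of the first motif, and the first and second are given because the bases before each match are the same.
IFI6, chr1:27672329-27672358, minus strand: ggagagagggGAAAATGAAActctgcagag
IFI6, chr1:27672288-27672317, minus strand: ggagagagggGAAAATGAAActgcagagtg

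Whether the lines changed alike was tested gene by gene, as the change in INA6 minus the change in JJN3. Of the 24 members tested in both lines 14, or 58.3%, had a called difference, where 30.0% of the 11137 genes tested in both lines did. In 9 of the 14 the change was more positive in INA6 and in 5 more positive in JJN3. Members called in the same direction in both lines were IRF1, IRF9 and SAMD9L, which were higher, and IFITM1 and IFITM2, which were lower. The difference for ISG20 was −0.26 (adjusted p = 0.0158), lost without INA6 control replicate 2 (0.0765) or INA6 knockdown replicate 1 (0.0635), in a range of 0.00658 to 0.0765. That for BST2 was −0.18 (adjusted p = 0.0197), lost without the mean-variance trend (0.0505) and without INA6 control replicate 1 (0.0782), JJN3 control replicate 1 (0.0715) or JJN3 knockdown replicate 3 (0.0760), in a range of 0.00800 to 0.0782. That for IFIT5 was 0.24 (adjusted p = 0.0115), which quantile normalisation ended (0.18, 0.0635; range 0.00252 to 0.0635). The target KANSL2 itself fell further in JJN3, by 0.82 (adjusted p = 2.11e-11), so line and extent of repression cannot be told apart.

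**Figure D4:**
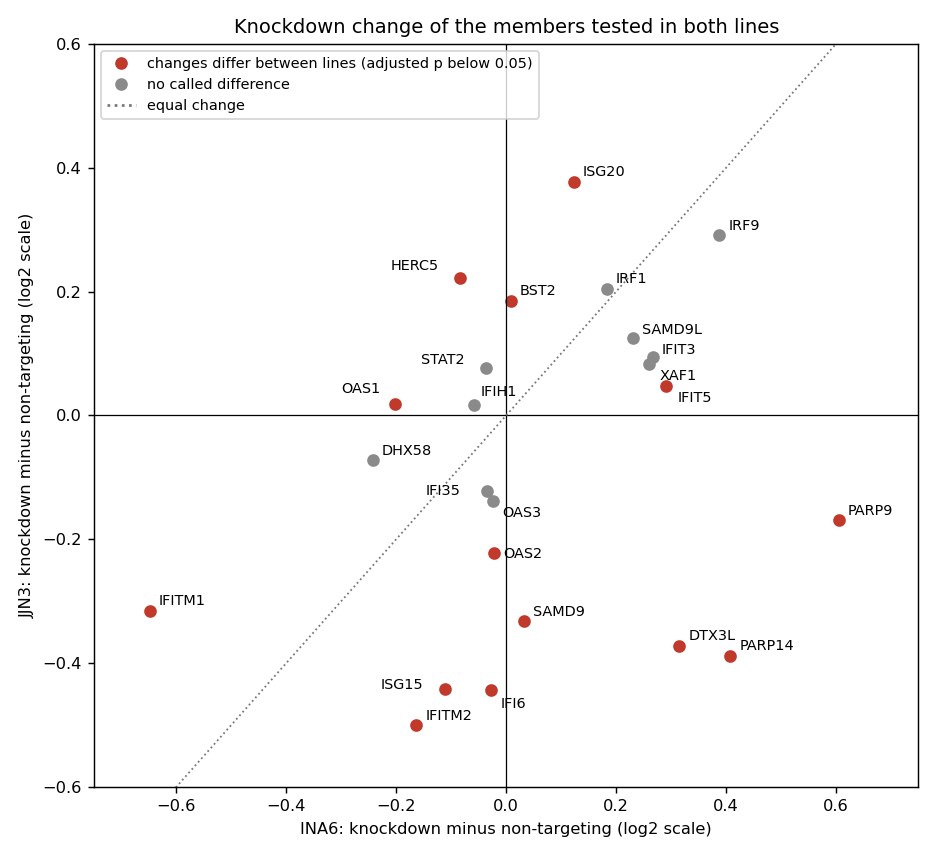
Change on knockdown in INA6 (x axis) against JJN3 (y axis), both on the log2 scale, for the 24 members tested in both lines; red points had a called difference between the lines and the dotted line marks equal change. PARP9, DTX3L and PARP14 lie far to the lower right, IFITM1 and IFITM2 at the lower left, and IRF1 and IRF9 lie near the line at the upper right.

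Other genes of the pathway were read from lists of ligands, receptors, sensors, inhibitors and further induced genes. Of 15 interferon genes none reached the minimum mean in INA6, where 8 were listed at 0, and 2 did in JJN3, where 11 were at 0. IFNG was lower in JJN3 by 0.16 (adjusted p = 0.00708), which quantile normalisation (0.0568) or leaving out knockdown replicate 2 (0.0662) ended, in a range of 0.00134 to 0.0662, and IFNL1 was at −0.045 (adjusted p = 0.296). Of 9 receptor and kinase genes tested in each line, 1 was higher and 4 lower in INA6, and 4 were higher and 3 lower in JJN3. In either direction 55.6% were called in INA6 and 77.8% in JJN3, against 48.6% and 51.0% of all genes tested. IL10RB, a shared chain of the interferon lambda receptor, fell by 0.39 in INA6 (adjusted p = 1.76e-06) and by 0.41 in JJN3 (adjusted p = 1.09e-07). IFNGR1, the ligand-binding chain for interferon gamma, fell by 0.44 in INA6 (adjusted p = 2.19e-06) and by 0.23 in JJN3 (adjusted p = 0.00123). IFNAR2, a chain of the type I receptor, was lower by 0.25 in INA6 (adjusted p = 0.000121) and at 0.068 in JJN3 (adjusted p = 0.178). JAK1 was lower by 0.27 in INA6 (adjusted p = 0.000205) and higher by 0.19 in JJN3 (adjusted p = 0.000664). In JJN3 IFNAR1, the other chain of the type I receptor, was higher by 0.20 and TYK2 by 0.20, while in INA6 they were at 0.0092 and 0.031 and were not called.

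Of the genes of nucleic acid sensing, 6 of 22 tested were higher and 7 lower in INA6, and 7 of 20 higher and 4 lower in JJN3. Over all genes tested, 24.7% were called higher and 24.0% lower in INA6, and 25.5% higher and 25.5% lower in JJN3. In either direction the share of all genes tested was 48.6% in INA6 and 51.0% in JJN3. CGAS, the sensor of cytosolic DNA, was higher by 0.47 in INA6 (adjusted p = 1.08e-06) and by 0.30 in JJN3 (adjusted p = 3.67e-06). STING1, the adaptor that CGAS signals to, was lower by 0.34 in JJN3 (adjusted p = 2.28e-05) and by 0.19 in INA6 (adjusted p = 0.00902), where it did not hold when control replicate 1 (0.0513) or knockdown replicate 2 (0.0578) was left out, in a range of 0.00296 to 0.0578. ZBP1, a sensor of Z-form nucleic acid, was lower by 0.29 in INA6 (adjusted p = 0.000189) and higher by 0.22 in JJN3 (adjusted p = 0.00298), a difference of −0.51 (adjusted p = 1.99e-06). ADAR, which edits double-stranded RNA, was higher by 0.30 in INA6 and by 0.13 in JJN3 (adjusted p = 0.00447), where quantile normalisation ended the call (0.039, 0.333), in a range of 0.000866 to 0.333. RNASEH2C, a subunit of ribonuclease H2, was higher by 0.33 in JJN3 (adjusted p = 3.59e-06) and at 0.044 in INA6. TRAF3, an adaptor of several sensors, rose by 0.18 in INA6 (adjusted p = 0.00401) and by 0.35 in JJN3 (adjusted p = 2.55e-08), and IRF5, a transcription factor, fell by 0.30 (adjusted p = 9.03e-05) and by 0.17 (adjusted p = 0.00106).

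Of 11 feedback inhibitors 1 was higher and 7 lower in INA6, and 3 higher and 5 lower in JJN3. In either direction 72.7% were called in each line, against 48.6% of all genes tested in INA6 and 51.0% in JJN3. SOCS3, which inhibits JAK kinases at cytokine receptors, had 10.68, 10.52 and 10.74 in INA6 knockdown libraries, against 12.82, 13.02 and 12.89 in INA6 controls. For JJN3, the SOCS3 values were 10.81, 10.61 and 10.75 in knockdown libraries, against 10.51, 10.16 and 10.01 in JJN3 controls. SOCS3 was lower by 2.26 in INA6 (adjusted p = 7.11e-18), the largest fall of any gene tested in that line, and higher by 0.50 in JJN3 (adjusted p = 8.08e-07), with no overlap in either. SOCS1, a relative, was higher by 0.77 in JJN3 (adjusted p = 1.13e-11) and at 0.14 in INA6 (adjusted p = 0.0911), where it passed under 3 of 11 alternatives, in a range of 0.0321 to 0.455. CISH, of the same family, fell by 0.68 in INA6 (adjusted p = 1.39e-07) and by 0.27 in JJN3 (adjusted p = 3.98e-05). IRF8, a transcription factor, fell by 0.39 in INA6 (adjusted p = 3.48e-05) and was at −0.022 in JJN3. IRF2, a repressor that competes with IRF1, was lower by 0.29 in INA6 and by 0.11 in JJN3 (adjusted p = 0.0364), a JJN3 call lost under 6 of 12 alternatives, in a range of 0.00287 to 0.199. TRIM21, a ubiquitin ligase and antibody receptor, fell by 0.16 in INA6 (adjusted p = 0.0152) and by 0.22 in JJN3 (adjusted p = 0.00120), and its INA6 call ended with median centring (0.0575) or when control replicate 2 (0.0613) or knockdown replicate 2 (0.0559) was left out, in a range of 0.0119 to 0.0613.

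The list of further induced genes shares ADAR and IFI16 with the sensing list and TRIM21 with the inhibitor list. Of the further induced genes outside the 38, 16 of 46 tested were higher and 10 lower in INA6, and 11 of 45 higher and 20 lower in JJN3. In either direction 56.5% were called in INA6 and 68.9% in JJN3, against 48.6% and 51.0% of all genes tested. The median change of the further induced genes was 0.026 in INA6 and −0.080 in JJN3. PARP12, an antiviral ADP-ribosyltransferase, was higher by 0.47 in INA6 (adjusted p = 3.02e-07) and by 0.17 in JJN3 (adjusted p = 0.00964), where leaving out knockdown replicate 2 (0.0862) or 3 (0.0526) ended the call, in a range of 0.000131 to 0.0862. RNF213, a large ubiquitin ligase, was higher by 0.39 in INA6 and by 0.16 in JJN3 (adjusted p = 0.00128), where quantile normalisation ended the call (0.055, 0.238), in a range of 0.000270 to 0.238. APOL6, of the apolipoprotein L family, rose by 0.43 in INA6 (adjusted p = 1.73e-07) and by 0.32 in JJN3 (adjusted p = 2.03e-07), and NUB1, which promotes the breakdown of ubiquitin-like proteins, fell by 0.59 (adjusted p = 1.62e-06) and by 0.49 (adjusted p = 3.38e-08). UBE2L6, the conjugating enzyme for ISG15, was lower by 0.39 in JJN3 (adjusted p = 5.29e-09), and by 0.12 in INA6 (adjusted p = 0.0393), where the call was lost under 8 of 12 alternatives, in a range of 0.0146 to 0.193. TRIM25, which ubiquitinates the RNA sensor RIG-I, was higher by 0.32 in JJN3 (adjusted p = 9.41e-08) and by 0.20 in INA6 (adjusted p = 0.000494).

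**Figure D5:**
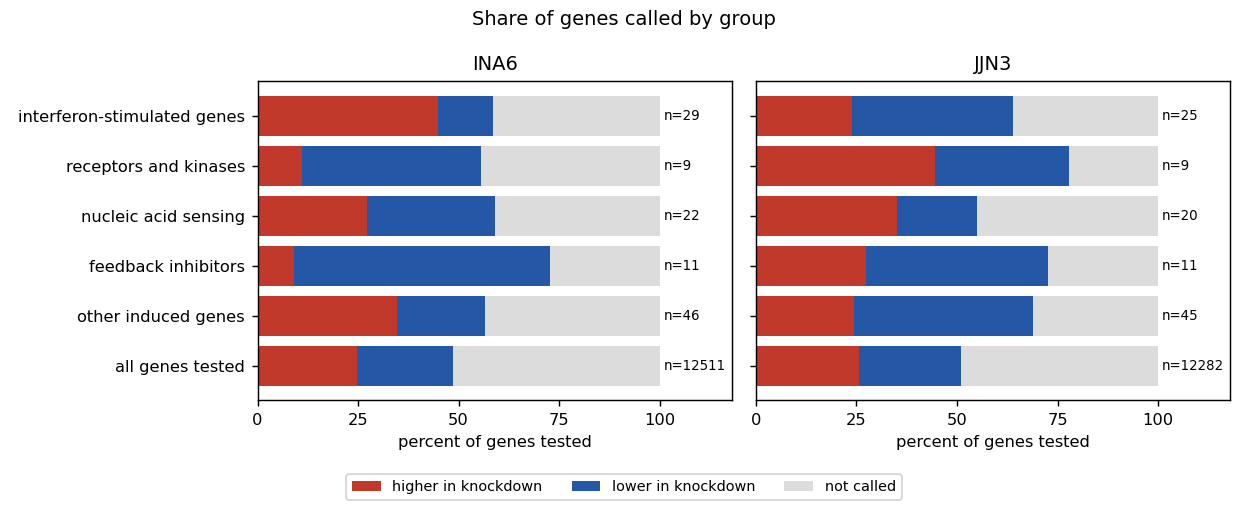
Share of genes tested (x axis, percent) that were called higher, lower or not called in the knockdown, for the interferon-stimulated genes, 4 pathway lists and all genes tested, in INA6 and JJN3; n is the number tested. The interferon-stimulated genes had 44.8% higher in INA6 and 40.0% lower in JJN3, against 24.7% and 25.5% of all genes tested.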

How the data were processed

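RNA of 12 libraries was analysed, grouped by their titles, with replicate numbers from the same titles. Libraries were made from poly(A) messenger RNA, per the labels' protocols. The tools named are DESeq2, HTSeq, Bowtie2 and Trim Galore, with build hg38, per the submitters' processing notes. Strand handling, tool settings and the annotation were not given in the sources used here. The authors deposited rlog values on the log2 scale, 1 table per line; rlog shrinks genes with few reads towards their mean, so their changes are understated. Read counts were not used here, so depth is unknown and no counting interval was computed.

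Each line was fitted with limma 3.58.1 in R 4.3.3 (lmFit, eBayes with a mean-variance trend, no block) over genes with a mean of at least 3. Lines were compared by the difference of the within-table changes divided by its standard error (both errors squared, added and rooted), on the degrees of freedom of both fits added. p-values are two-sided and adjusted over all genes tested. An exact permutation test of 3 against 3 libraries cannot go below 0.1 and was not used. Alternatives were median centring, quantile normalisation, no filter, a minimum mean of 5, no trend, a block for the replicate number, and each library left out in turn.

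The members and lists were chosen with earlier results of these data known. The rule for naming genes took all 38 members, with library values for the members called with the 6 smallest p per direction and line, for those that differed between lines and for small families, and up to 4 genes per list and line with the smallest p. Each of these is set beside its value in the other line. One listed gene is not reported here. Markers named outside the rule, LIPA, KPNA1 and the neighbours of DTX3L were chosen after their values were seen. Promoter sequences and coordinates are from RefSeq on GRCh38.p14.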

Additional observations from a re-analysis of the deposited data

Results flagged for a closer look

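A member is listed here when its knockdown change differed between the 2 lines (change in INA6 minus change in JJN3, adjusted p below 0.05 over all genes tested in both lines). The change was more positive in INA6 for PARP14 (0.80), PARP9 (0.77), DTX3L (0.69), IFI6 (0.42), SAMD9 (0.36), IFITM2 (0.34), ISG15 (0.33), IFIT5 (0.24) and OAS2 (0.20). It was more positive in JJN3 for IFITM1 (−0.33), HERC5 (−0.31), ISG20 (−0.26), OAS1 (−0.22) and BST2 (−0.18). KANSL2 was reduced further in JJN3 than in INA6, which moves with line in all of these; its part in them cannot be told apart.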

How the results depend on the processing

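Of the members called, 14 of 17 in INA6, 12 of 16 in JJN3 and 9 of 14 of the differences between lines kept their call and direction under every alternative that could be run for them, and no called member changed sign. The exceptions are given beside their values: IFIT2, SAMD9L and TRIM22 in INA6, OAS3, PARP9, SAMD9L and BST2 in JJN3, and the differences of IFIT5, ISG20, OAS1, BST2 and OAS2. Of the members not called, 1 of 12 in INA6 and 3 of 9 in JJN3 passed under at least 1 alternative, as did 4 of 10 differences. The number of members called higher in INA6 was 8 with a minimum mean of 5, against 13 in the main fit, because fewer members are tested. IFIT1, IFIT2, IFIT5, TRIM22 and XAF1, with means of 3.29 to 4.14 over the 6 INA6 libraries, were not tested there. Leaving out each library gave 11 to 13 higher and 4 lower in INA6, 5 to 7 higher and 9 to 11 lower in JJN3, and 12 to 17 members that differed between lines. Of all pathway list genes tested, each counted once, 49 of 85 were called in INA6 (57.65%) and 55 of 84 in JJN3 (65.48%). Of all genes tested, 48.6% were called in INA6 and 51.0% in JJN3. The pathway list counts were 40 to 49 and 44 to 54 without 1 library, and 46 and 55 with the block. Same-numbered libraries did not deviate together (correlations from −0.296 to −0.0678 in INA6 and −0.0140 to 0.00452 in JJN3), so the numbers were not treated as pairs; with the replicate block 13 members were higher and 4 lower in INA6, 7 higher and 10 lower in JJN3, and 14 differed. Genes below the minimum mean and changes of genes with few reads are limited by depth, which is unknown. Scaling by median centring moved the median change of all genes to 0.038 in INA6 and 0.028 in JJN3.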
